A study of Mus musculus with 6 samples.

Results

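The genes described here are 10 genes of TGF-beta and activin signalling, the ligand genes Tgfb1, Tgfb2, Tgfb3 and Inhba, the ligand-binding genes Ltbp1 and Fst, the receptor genes Tgfbr1, Tgfbr2 and Tgfbr3, and the inhibitor gene Smad7. They were chosen by symbol: each of the 24 probe sets annotated with exactly 1 of these symbols was taken, and the brightest on average stands for its gene as the main probe set. They are 10 of 18194 genes with a symbol on the array, and 9 of them have several probe sets. Values are log2 intensities except where called folds, and all 10 genes lay above the median of at least 1 array, the limit used here for calling a gene detected.

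The mice were male Black Swiss animals of 8 to 10 weeks, and left ventricular cells were sorted 1 week after surgery. By the labels, 3 had transverse aortic constriction (TAC), a narrowing of the aorta that loads the left ventricle with pressure, and the other 3 a sham operation. Each surgery gave traced fibroblasts (lineage label Tie2cre lineage traced), untraced fibroblasts (Tie2cre non-lineage) and endothelial cells, with 1 array each, so the 6 groups have no replicates. Tie2-Cre is Cre recombinase under the promoter of Tek, a receptor gene of endothelial cells, and it is known to mark blood-derived cells as well. The labels name neither the reporter nor the sorting markers, and they do not say whether RNA of several mice was pooled or whether the arrays of 1 surgery share mice.

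TGF-beta is secreted in a latent complex with its own propeptide, which latent TGF-beta binding proteins tether to the matrix until integrins, thrombospondin or proteases release it. Free ligand brings together a type II and a type I receptor kinase, which phosphorylate SMAD proteins that enter the nucleus, and SMAD7, itself induced by the pathway, blocks the type I receptor. Activins, dimers of inhibin beta chains, signal through related receptors to the same SMADs and are held in check by follistatin, and both pathways are known for turning heart fibroblasts towards matrix production.

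By the defining markers the arrays carried the cell types their labels name, but the endothelial arrays also carried markers of other cells. The endothelial adhesion gene Pecam1 ranged between 6.76 and 7.98 in fibroblasts, while the endothelial arrays had 13.43 after TAC and 13.55 at sham. The growth factor receptor gene Pdgfra ranged between 12.03 and 12.56 in fibroblasts, while the endothelial arrays had 8.72 after TAC and 7.63 at sham. On the endothelial TAC array all 12 fibroblast markers stood at least 2-fold above the endothelial sham array, against 10.9% of detected genes. Their summed intensity there was 53669 after TAC against 3696 at sham, beside 123857 to 139044 on the fibroblast arrays. The 12 endothelial markers summed to 97264 after TAC and 116662 at sham on the endothelial arrays, and on the fibroblast arrays to 2697 (traced) and 3619 (untraced) after TAC, against 5283 and 5830 at sham. Tek weighs most in these fibroblast sums, at 10.70 in traced and 11.14 in untraced cells after TAC, against 11.76 and 11.91 at sham. Its cell type difference of -1.13 did not pass (limma adjusted p = 0.109). The 8 mural cell markers summed to 9622 after TAC and 15326 at sham on the endothelial arrays, against 8017 to 10110 on the fibroblast arrays. The 8 cardiomyocyte markers summed to 3760 after TAC and 6828 at sham on the endothelial arrays, against 883 to 1440 on the fibroblast arrays, and the 9 macrophage markers to 1826 after TAC and 1034 at sham on the endothelial arrays. The 18S ribosomal RNA control was 13.67 on the untraced TAC array and 14.44 to 14.75 on the others.

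The start regions of these genes differ in sequence, and 4 of them are printed: Tgfb1, the gene called higher in endothelial cells, Tgfb2, the gene whose fibroblast call held under every setting run, Inhba, the gene farthest apart between TAC and sham endothelial cells, and Ltbp1, a latency gene lower in TAC fibroblasts. They are the windows from 250 bases before to 50 bases after the annotated start in RefSeq, build GRCm38.p6, which were read for 6 of the 10 genes. Capitals mark every match, on either strand, to TATAAA (the TATA box), GGGCGG (the GC box), CACGTG (an E-box), TGACGTCA (the cyclic AMP response element), TGANTCA (the AP-1 site) and CAGAC (a short motif bound by SMADs). The windows are Tgfb1 at chr7:25686752-25687051 on the plus strand, Tgfb2 at chr1:186705940-186706239 on the minus strand, Inhba at chr13:16011601-16011900 on the plus strand, and the first of 2 listed starts of Ltbp1 at chr17:75005279-75005578 on the plus strand.
Tgfb1: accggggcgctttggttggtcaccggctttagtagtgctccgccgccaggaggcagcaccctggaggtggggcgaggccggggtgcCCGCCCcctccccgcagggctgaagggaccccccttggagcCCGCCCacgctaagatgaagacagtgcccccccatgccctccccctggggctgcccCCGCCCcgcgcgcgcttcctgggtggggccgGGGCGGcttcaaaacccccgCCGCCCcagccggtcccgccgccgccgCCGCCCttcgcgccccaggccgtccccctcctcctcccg
Tgfb2: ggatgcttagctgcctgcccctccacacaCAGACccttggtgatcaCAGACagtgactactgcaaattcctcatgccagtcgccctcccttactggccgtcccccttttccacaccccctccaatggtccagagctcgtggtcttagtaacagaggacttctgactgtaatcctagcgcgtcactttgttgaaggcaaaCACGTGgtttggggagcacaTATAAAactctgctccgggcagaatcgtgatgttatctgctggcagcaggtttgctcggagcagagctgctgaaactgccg
Inhba: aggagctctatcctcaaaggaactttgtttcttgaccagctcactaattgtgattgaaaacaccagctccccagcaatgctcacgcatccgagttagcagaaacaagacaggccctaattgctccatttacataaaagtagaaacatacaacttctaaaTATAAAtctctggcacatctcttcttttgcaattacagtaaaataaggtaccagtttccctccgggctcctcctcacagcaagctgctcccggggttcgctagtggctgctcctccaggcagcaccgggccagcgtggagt
Ltbp1: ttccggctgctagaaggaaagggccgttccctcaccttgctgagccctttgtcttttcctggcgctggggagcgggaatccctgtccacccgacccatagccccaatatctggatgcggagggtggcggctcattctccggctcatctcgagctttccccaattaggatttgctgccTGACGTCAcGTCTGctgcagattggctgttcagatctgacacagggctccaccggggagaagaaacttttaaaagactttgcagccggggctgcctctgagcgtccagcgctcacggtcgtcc
The Tgfb1 window has 77% G and C, against a median of 52.7% over all 32851 windows, and holds 6 GC boxes and 0 TATA boxes. The Tgfb2 window has 54.3% G and C, with a TATA box 31 bases and an E-box 51 bases before the start and 2 CAGAC matches farther upstream. The Inhba window has 47.7% G and C and 1 TATAAA match, 91 bases before the start. The Ltbp1 window holds 1 cyclic AMP response element, 73 bases before the start, 1 base from a CAGAC match on the other strand. Of all windows, 13.6% hold TATAAA, 35.7% GGGCGG, 7.15% CACGTG, 1.79% TGACGTCA, 7.81% TGANTCA and 49.6% CAGAC. These matches describe the letters of the reference and are not measured sites.

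The first comparison asks in which cell type each gene stood higher. Fibroblasts carried more Tgfb2, the isoform known from heart valve formation (9.36-fold), Tgfb3 (8.49-fold), the co-receptor gene Tgfbr3 (4.67-fold), and Ltbp1 (3.66-fold) than endothelial cells, and endothelial cells carried more Tgfb1 (2.81-fold). The activin antagonist gene Fst was also higher in fibroblasts, by at least 1.75-fold when its 2 endothelial values, both below the array median, were raised to that median. Of the 10 genes 5 were called higher in fibroblasts, against 11.5% of 12257 detected genes, and 1 was called lower, against 6.5%. Fst is among the 5 and counted as detected through fibroblasts alone, and its bound of 1.75-fold is under the 2-fold used for calls. With detection above the upper quartile Fst was not tested and the count was 4. The calls come from limma on 2 values per cell type, 1 per surgery with traced and untraced fibroblasts averaged, at a Benjamini-Hochberg adjusted p under 0.05 and a difference of at least 2-fold. The median difference of the 10 genes was 1.83, against 0.22 for all detected genes. Inhba, Tgfbr1 and Tgfbr2 had positive differences but did not pass, nor did Smad7. With surgery as a block, Inhba, Tgfbr1 and Tgfbr2 did pass, Inhba at a limma adjusted p of 0.00569, Tgfbr1 at 0.00737 and Tgfbr2 at 0.0291. The block assumes the same TAC difference in both cell types and leaves fewer residual degrees of freedom than the main fit. For Inhba the TAC difference was 0.57 in fibroblasts and 3.26 in endothelial cells. The labels do not say whether the cell types of a surgery share mice.

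**Figure D1:**
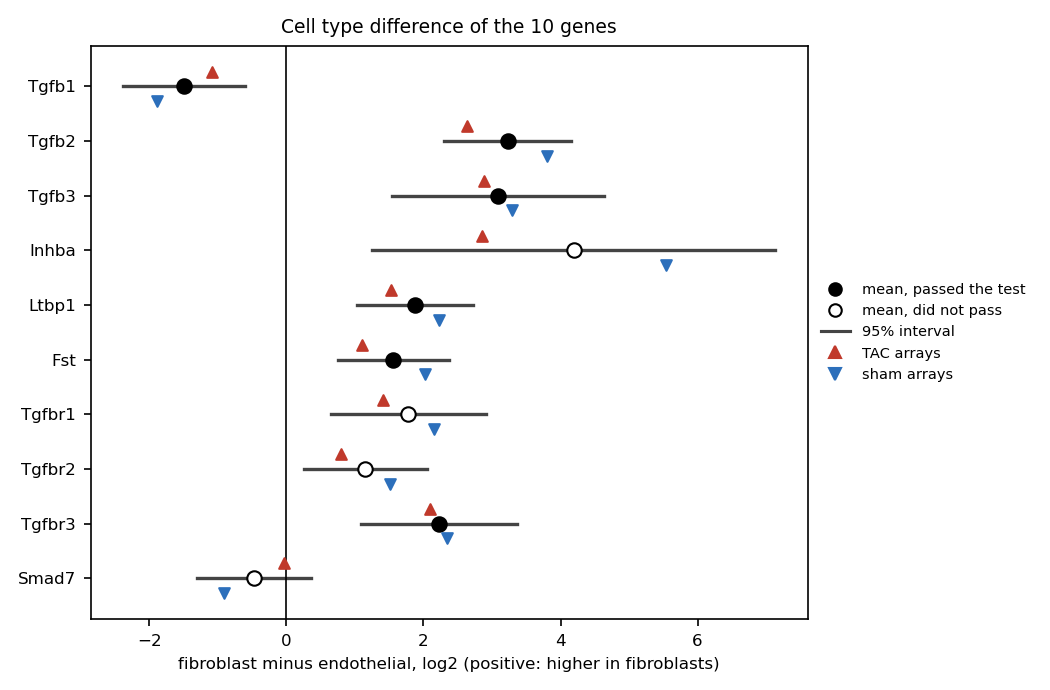
Fibroblast minus endothelial difference of each gene in log2 units (x axis), as the mean with its 95% interval from limma and with the differences on the TAC and on the sham arrays apart. Tgfb1 lies at -1.49, left of 0, Tgfb2 and Tgfb3 lie at 3.23 and 3.09, and the interval of Inhba, from 1.25 to 7.13, is the widest of the 10.

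The p-values measure the spread between the 2 surgeries. This spread holds the TAC minus sham difference itself as well as any technical part, and no replicate separates them. In these bulk samples fewer cells of a type and less RNA per cell cannot be told apart. Without the endothelial sham array only Tgfb2 and Inhba passed as higher in fibroblasts and Tgfb1 did not pass, and without the endothelial TAC array Ltbp1, Tgfbr3 and Tgfb1 lost their calls while Inhba, Tgfbr1 and Tgfbr2 gained them.

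The second comparison asks how the genes differed between TAC and sham. In fibroblasts Tgfb3 stood higher after TAC, by 2.07-fold in traced and 1.78-fold in untraced cells, and Tgfbr3 stood lower, by 1.85-fold in traced and 1.91-fold in untraced cells. Ltbp1 stood lower by 1.73-fold in traced and 1.57-fold in untraced fibroblasts, and Tgfb2 by 1.49-fold and 1.33-fold. Tgfb1 stood 2.34-fold higher in traced and 1.27-fold higher in untraced fibroblasts. In endothelial cells Tgfb3 stood 2.55-fold higher after TAC and Tgfbr1 2.1-fold, and Inhba at least 2.17-fold, since its sham value lay below the array median and was raised to it. With 1 array for each population and surgery, these differences have no test.

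At 2-fold in both fibroblast populations 0 of the 10 genes stood higher and 0 lower, against 4.33% and 1.79% of 11623 detected genes. At 1.5-fold in both, 1 stood higher (Tgfb3), against 8.9% of detected genes, and 2 stood lower (Ltbp1 and Tgfbr3), against 4.86%. In traced fibroblasts alone 2 stood at least 2-fold higher (Tgfb1 and Tgfb3), against 6.19%, and 0 lower, against 2.66%. In untraced fibroblasts alone 0 stood 2-fold higher and 0 lower, against 4.98% and 2.95%. In endothelial cells 3 of the 9 genes detected there (Inhba, Tgfb3 and Tgfbr1) stood at least 2-fold higher, against 10.9% of 11157 detected genes, and 0 lower, against 1.83%. Inhba is in that count only because its TAC value passed the detection limit, and above the upper quartile the count was 2. At 1.5-fold 5 stood higher there, Tgfb2 and Tgfbr2 being added, against 24.6%, and 1 stood lower (Tgfbr3), against 7.64%. The median TAC difference of the 10 genes was 0.21 in fibroblasts and 0.60 in endothelial cells, against 0.05 and 0.18 over the detected genes.

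**Figure D2:**
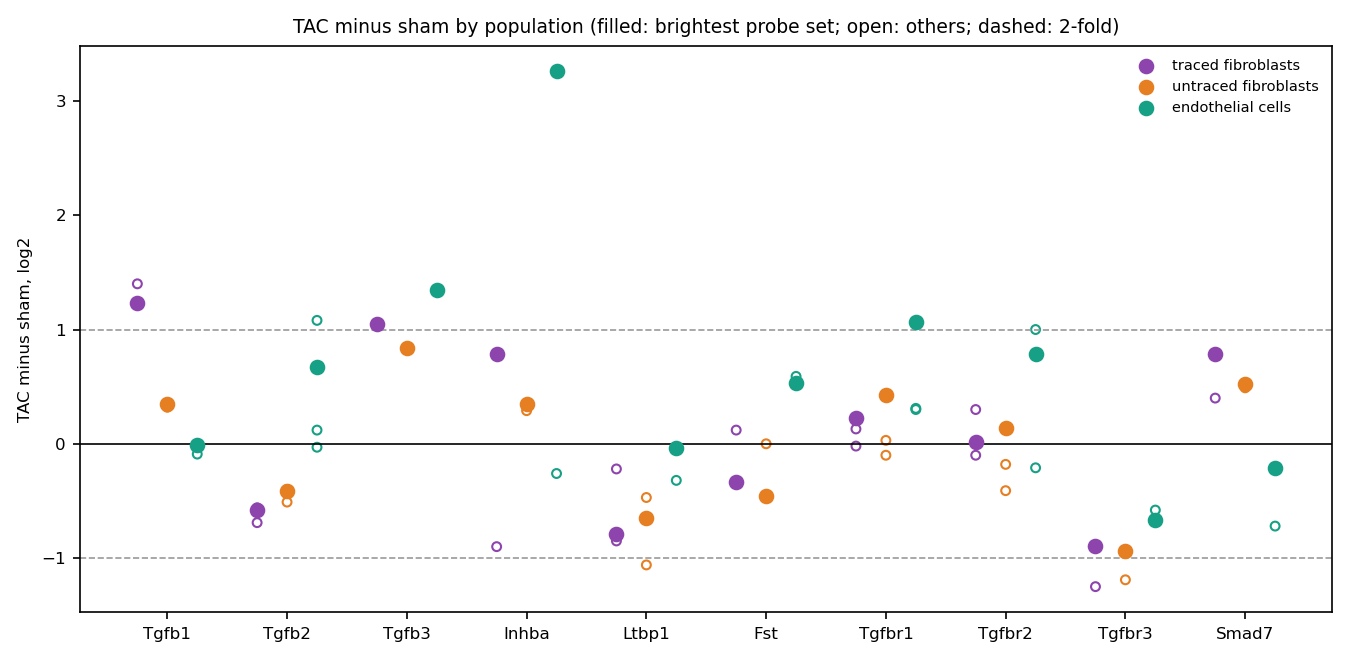
TAC minus sham difference in log2 units (y axis) of each gene (x axis) in traced fibroblasts, untraced fibroblasts and endothelial cells, with filled points for the brightest probe set and open points for the others. Inhba in endothelial cells, at 3.26, is the highest point, and both probe sets of Tgfbr3 lie below 0 in all 3 populations.

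Among the ligands, Tgfb2 and Tgfb3 shared the higher level in fibroblasts but lay on opposite sides of 0 after TAC. Tgfb2 stood at 10.67 in traced and 10.68 in untraced fibroblasts after TAC, against 11.24 in traced and 11.09 in untraced fibroblasts at sham, and at 8.03 in endothelial cells after TAC, against 7.36 at sham. All fibroblast arrays lay above both endothelial arrays. The cell type difference was 3.23 (standard error 0.349, limma adjusted p = 0.0103), from 10.92 ± 0.35 in fibroblasts and 7.69 ± 0.48 in endothelial cells (SD, n = 2 each). Tgfb2 has 4 probe sets, and in fibroblasts their TAC differences were close, from -0.69 to -0.56 in traced and from -0.51 to -0.40 in untraced cells. In endothelial cells the 4 probe sets gave 0.67, -0.03, 0.12 and 1.08. The last 2 rest on sham values of 6.68 and 5.14, below the array median. The brighter probe sets gave 0.67 and -0.03, so no direction is settled there.

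**Figure D3:**
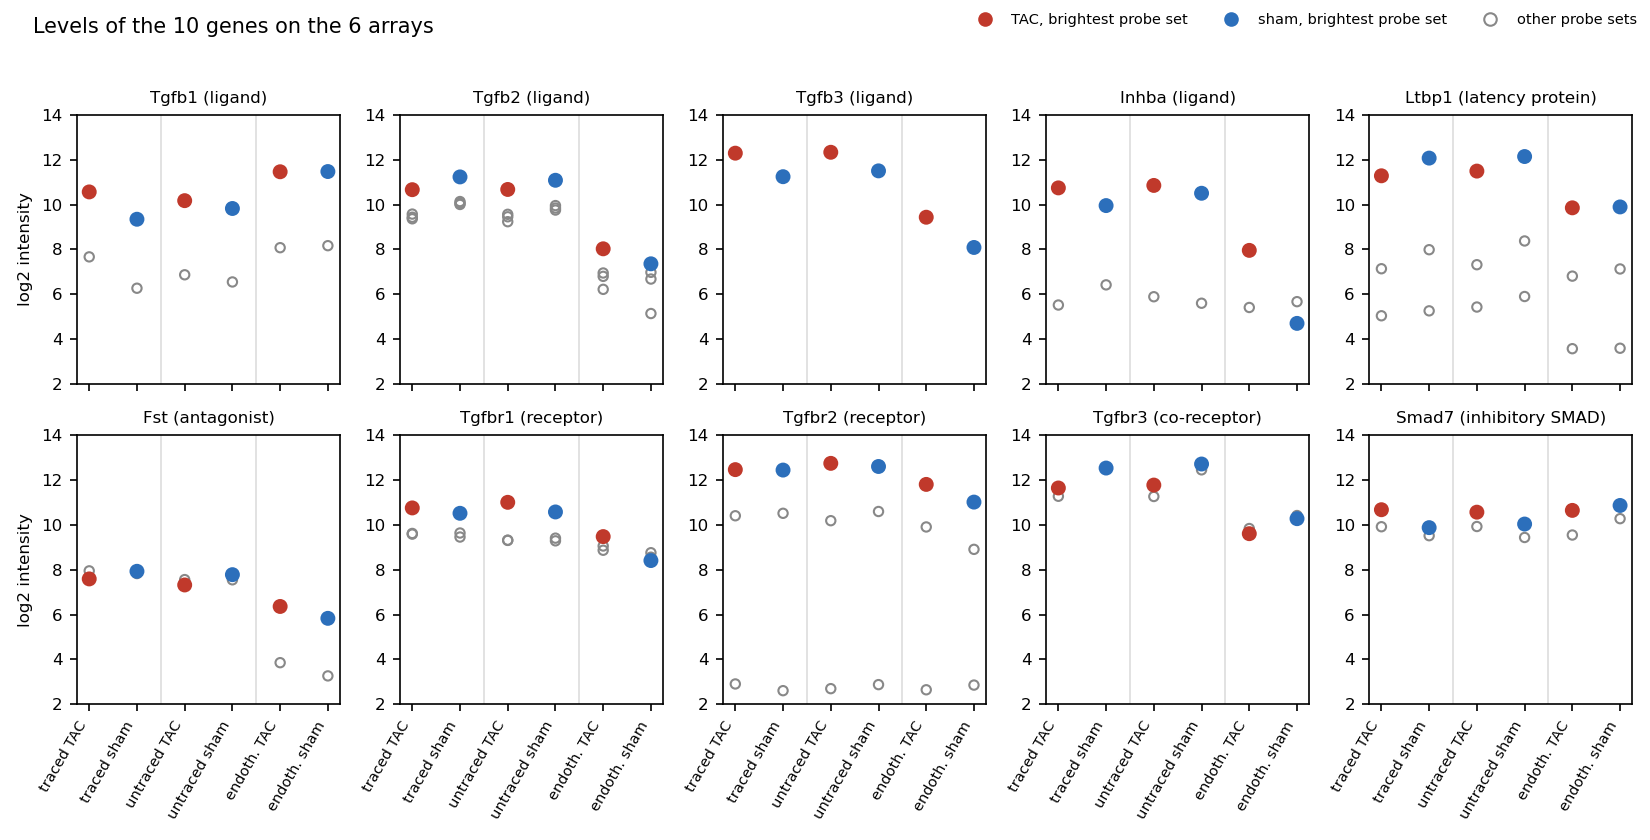
Log2 intensity (y axis, the same in every panel) of the 10 genes on the 6 arrays (x axis), with TAC to the left of sham in each population, filled points for the brightest probe set and open points for the others. Tgfb2 and Tgfb3 are high on the 4 fibroblast arrays and low on the endothelial arrays, and Inhba is lowest on the endothelial sham array, at 4.70.

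Tgfb3, the isoform known for palate closure, stood at 12.30 in traced and 12.34 in untraced fibroblasts after TAC, against 11.25 in traced and 11.51 in untraced fibroblasts at sham, and at 9.44 in endothelial cells after TAC, against 8.09 at sham. The TAC array was the higher one in all 3 populations. The cell type difference was 3.09 (standard error 0.584, limma adjusted p = 0.0318). It did not pass without the endothelial sham array (limma adjusted p = 0.0806, the highest over 15 alternative settings, with 0.00119 the lowest). Tgfb3 has 1 probe set, so its values have no second reading on the array.

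Tgfb1, the isoform most often tied to fibrosis, stood at 10.57 in traced and 10.18 in untraced fibroblasts after TAC, against 9.35 in traced and 9.83 in untraced fibroblasts at sham, and at 11.47 in endothelial cells after TAC, against 11.48 at sham. It was higher on both endothelial arrays than on any fibroblast array, and the endothelial arrays differed by -0.01. The cell type difference was -1.49 (standard error 0.337, limma adjusted p = 0.0473, with 0.0132 to 0.141 over 15 alternative settings, 7 of which gave no call). The TAC difference was 1.23 in traced and 0.35 in untraced fibroblasts, and the second, dimmer probe set gave 1.40 and 0.32. The gap between these responses was 0.88, and 0.895% of detected genes had a gap at least as large in that direction. This was the smallest such share of the 10 genes, each in its own direction. Inhba had 9.96% and the others lay between 16.4% and 53.1%. The share is a rank and not a test. The gap rests on 1 array per group, among them the untraced TAC array, whose 18S control was 13.67. The 9 macrophage markers, genes of cells that Tie2-Cre can mark, summed to an intensity of 1585 in traced and 1148 in untraced fibroblasts after TAC, against 2232 and 1486 at sham. Of the 6 detected, Csf1r stood 1.44 higher after TAC in traced and 0.96 higher in untraced fibroblasts, Cd68 0.72 and 0.37, and Lyz2 0.09 and 0.17. In the same order Laptm5 was -1.41 and -0.00, Cx3cr1 -1.55 and -1.93, and Cd14 -0.63 and -0.76. The part of these markers in the Tgfb1 values was not tested.

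Inhba, which encodes the inhibin beta A chain that forms activin A, stood at 10.75 in traced and 10.86 in untraced fibroblasts after TAC, against 9.96 in traced and 10.51 in untraced fibroblasts at sham. In endothelial cells it stood at 7.96 after TAC, against 4.70 at sham, which is at percentile 18 of that array. All fibroblast arrays were above both endothelial arrays, and the endothelial arrays lay 3.26 apart as deposited, 1.98 apart with an offset of 50 intensity units and 1.5 apart with the mean of both probe sets. The cell type difference was 4.19 and did not pass (standard error 1.11, limma adjusted p = 0.0676, or 0.00569 with the surgery block). It was 2.85 on the TAC arrays and 5.54 on the sham arrays. A second probe set of Inhba stayed between 5.41 and 6.42 on all arrays, at percentiles 28.8 to 44.3, and gave TAC differences of -0.90 in traced fibroblasts, 0.29 in untraced fibroblasts and -0.26 in endothelial cells.

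The Inhba value in endothelial cells moved together with the fibroblast markers on the endothelial TAC array, whose 12 TAC differences in endothelial cells had a median of 3.80. Tgfb2, Tgfb3, Fst, Tgfbr1 and Tgfbr2 likewise had positive TAC differences in endothelial cells and positive fibroblast minus endothelial differences, and the part of fibroblast RNA in these values was not tested. Ltbp1, with a cell type difference of 1.87, had a TAC difference of -0.04 in endothelial cells. Tgfbr3 had a higher level in fibroblasts, and its TAC value in endothelial cells was 0.67 lower than the sham value by 1 probe set and 0.58 lower by the other. The 8 mural cell markers had a median TAC difference of -0.74 in endothelial cells, and their part in the Tgfbr3 values there was not tested.

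Of the genes whose products bind the ligands outside the cell, Ltbp1, which holds latent TGF-beta in the matrix, stood lower in TAC fibroblasts. This held on its main and next brightest probe sets, and the third was too dim to read a difference from. The main values of Ltbp1 were 11.29 in traced and 11.50 in untraced fibroblasts after TAC, against 12.08 in traced and 12.15 in untraced fibroblasts at sham, and 9.86 in endothelial cells after TAC, against 9.90 at sham. The endothelial arrays lay 0.04 apart. The other probe sets gave -0.85 and -0.22 in traced and -1.06 and -0.47 in untraced fibroblasts. The values of -0.22 and -0.47 come from the third probe set, which lay at percentiles 7.02 to 38. The cell type difference was 1.87 (standard error 0.321, limma adjusted p = 0.0256, with 0.00288 to 0.0874 over 15 alternative settings).

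Fst encodes follistatin, which binds activin and keeps it from its receptors. It stood at 7.59 in traced and 7.32 in untraced fibroblasts after TAC, against 7.93 in traced and 7.78 in untraced fibroblasts at sham, and at 6.36 in endothelial cells after TAC, against 5.83 at sham. Both endothelial values were below the median of their arrays, so Fst did not count as detected there. Its cell type difference is therefore a bound, at least 0.81 with the endothelial values raised to the array medians. Its 2 probe sets disagreed: the main one gave a cell type difference of 1.56 (standard error 0.306, limma adjusted p = 0.0343, lost without the endothelial sham array at 0.095) and TAC differences of -0.33 in traced and -0.46 in untraced fibroblasts, and the other gave 4.16, 0.12 and 0.00. On that second probe set the endothelial sham value was at percentile 4.72, so its cell type difference rests on a dim value.

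Among the receptors, the co-receptor gene stood lower after TAC while the 2 kinase genes differed by at most 1.35-fold in fibroblasts on their main probe sets. Tgfbr3 encodes betaglycan, a membrane proteoglycan that presents ligand, TGF-beta 2 above all, to the kinases. It stood at 11.65 in traced and 11.78 in untraced fibroblasts after TAC, against 12.54 in traced and 12.72 in untraced fibroblasts at sham, and at 9.61 in endothelial cells after TAC, against 10.28 at sham. The TAC array was the lower one in all 3 populations and on both probe sets, and the second gave -1.25 in traced and -1.19 in untraced fibroblasts. With the mean of both probe sets Tgfbr3 was at least 2-fold lower in both fibroblast populations. Its cell type difference was 2.22 (standard error 0.43, limma adjusted p = 0.033, with 0.00229 to 0.0785 over 15 alternative settings). Of 8 mural cell markers 4 (Kcnj8, Abcc9, Myh11 and Vtn) also stood at least 2-fold lower in both fibroblast populations after TAC, against 1.79% of detected genes, with a list median of -0.92. Notch3 was -0.49 in traced and -0.62 in untraced fibroblasts, while Cspg4 (0.61 and 0.83) and Pdgfrb (0.40 and 0.26) lay above 0 in both, and Rgs5 was 0.28 and -0.03. The mural list summed to 9151 in traced and 8017 in untraced fibroblasts after TAC, against 9503 and 10110 at sham, and its part in the Tgfbr3 values was not tested.

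Tgfbr1, the type I kinase, stood at 10.76 in traced and 11.01 in untraced fibroblasts after TAC, against 10.52 in traced and 10.58 in untraced fibroblasts at sham, and at 9.48 in endothelial cells after TAC, against 8.41 at sham. Its cell type difference of 1.78 did not pass (standard error 0.427, limma adjusted p = 0.0543, or 0.00737 with the surgery block, 95% interval 0.65 to 2.91). The other probe sets gave smaller cell type differences, 0.59 and 0.70, and TAC differences in endothelial cells of 0.30 and 0.31, against 1.07 on the main one. Tgfbr2, the type II kinase that binds ligand first, stood at 12.47 in traced and 12.75 in untraced fibroblasts after TAC, against 12.45 in traced and 12.61 in untraced fibroblasts at sham, and at 11.81 in endothelial cells after TAC, against 11.02 at sham. Its cell type difference of 1.15 did not pass (standard error 0.338, limma adjusted p = 0.0836, or 0.0291 with the surgery block, 95% interval 0.26 to 2.05). A second probe set gave 1.02 between cell types and 1.00 between the endothelial arrays, and the remaining one lay at percentiles 1.22 to 3.02, too dim to read a difference from.

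Smad7, the inhibitor that the pathway itself induces, stood higher in TAC fibroblasts and lower in TAC endothelial cells. It stood at 10.68 in traced and 10.57 in untraced fibroblasts after TAC, against 9.88 in traced and 10.04 in untraced fibroblasts at sham, and at 10.65 in endothelial cells after TAC, against 10.87 at sham. At sham both fibroblast arrays lay below the endothelial array, by 0.91 on average, and after TAC the mean lay 0.03 below. The cell type difference over both surgeries was -0.47 and did not pass (limma adjusted p = 0.342, 95% interval -1.30 to 0.36). The second probe set, of a kind (_x_at) that may bind other transcripts, gave TAC differences of 0.40 in traced fibroblasts, 0.49 in untraced fibroblasts and -0.72 in endothelial cells.

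The third comparison asks whether Tie2-Cre traced fibroblasts differed from untraced ones in these genes. Of the 10 genes 0 stood at least 2-fold higher and 0 at least 2-fold lower in traced cells at both surgeries, against 0.0344% of 11623 detected genes in each direction. At 1.5-fold the counts were again 0 and 0, against 0.361% of detected genes higher and 0.344% lower. Inhba stood lower in traced fibroblasts, by 0.12 after TAC and 0.56 at sham, and Tgfbr2 by 0.28 and 0.16. Fst stood higher in traced fibroblasts, by 0.28 after TAC and 0.15 at sham. Tgfb1 had opposite signs at the surgeries: it was 0.39 higher in traced fibroblasts after TAC and 0.49 lower at sham. None of these values was tested.

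The wider pathway was read from 6 lists of other genes. Among 12 genes of latency and activation, 10 of them analysed here, 8 were detected in fibroblasts. Of the 8, 2 stood at least 2-fold higher in both fibroblast populations after TAC and 0 lower, against 4.33% and 1.79% of detected genes. These were Ltbp2, a microfibril protein related to Ltbp1 that does not bind latent TGF-beta (1.64 in traced and 1.47 in untraced), and Thbs1, which encodes the latent TGF-beta activator thrombospondin (1.70 and 1.79). The list median was 0.70. Ltbp1 and Ltbp2 thus stood on opposite sides of 0. Emilin1, which binds the TGF-beta precursor, was 0.92 and 0.65 higher, and Itgb8, an integrin chain that activates latent TGF-beta, 0.57 and 0.98. Itgav (2.34, limma adjusted p = 0.0351) and Ltbp3 (1.70, limma adjusted p = 0.0192) were higher in fibroblasts than in endothelial cells. Itgb8 was higher in fibroblasts by at least 2.54-fold, and its endothelial values lay below the array median, so it counted as detected through fibroblasts alone. Its limma adjusted p of 0.0165 belongs to the unraised difference of 4.94. Nrros, which anchors latent TGF-beta on myeloid cells, was lower in fibroblasts, where all 4 values lay below the array median, and at least 3.56-fold higher in endothelial cells. It counted as detected through endothelial cells alone, and its limma adjusted p of 0.00786 belongs to the unraised difference of -2.93.

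Among 6 other ligand genes, 4 of them analysed here, 3 were detected in fibroblasts. Of the 3, 1, Inhbb, stood at least 2-fold lower in both populations after TAC and 0 higher, against 1.79% and 4.33% of detected genes. Inhbb encodes the inhibin beta B chain of activin B. It stood at 9.78 in traced and 10.29 in untraced fibroblasts after TAC, against 11.10 in traced and 11.58 in untraced fibroblasts at sham, and at 10.40 in endothelial cells after TAC, against 8.06 at sham. The endothelial TAC value lay between the values of untraced fibroblasts after TAC and at sham, and the part of fibroblast RNA in it was not tested. Inhba and Inhbb thus stood on opposite sides of 0 in fibroblasts after TAC and on the same side in endothelial cells. Inha, the inhibin alpha chain, was higher in fibroblasts than in endothelial cells, where both values lay below the array median, by at least 1.62-fold. That bound is under the 2-fold used for calls, and Inha counted as detected through fibroblasts alone. Its limma adjusted p of 0.0163 belongs to the unraised difference of 2.45. Nodal was lower in fibroblasts (-1.36, limma adjusted p = 0.0231). Its traced TAC value of 6.72 and untraced sham value of 6.62 lay below the array median.

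Of 8 other receptors and co-receptors 7 were detected in fibroblasts. After TAC 1 stood at least 2-fold lower in both fibroblast populations and 0 higher, against 1.79% and 4.33% of detected genes. This was the activin type II receptor gene Acvr2b (-1.26 in traced and -1.99 in untraced). Its untraced TAC value, 6.45, lay below the array median. The type I receptor gene Acvr1 stood 1.01 higher in traced and 0.54 higher in untraced fibroblasts. Acvrl1, a receptor gene known from endothelial cells, was -0.46 and -0.48, and -0.56 in endothelial cells. Its cell type difference was -0.04 and did not pass (limma adjusted p = 0.948). In endothelial cells Bambi, a decoy receptor, stood 1.39 higher after TAC and Acvr2a 1.03 lower. Eng, the endothelial co-receptor endoglin, was the 1 gene of this list to pass between cell types, lower in fibroblasts (-1.74, limma adjusted p = 0.0168). Of all detected genes 6.5% were called lower there. Of 3 extracellular binders 1 stood at least 2-fold higher in both fibroblast populations, against 4.33% of detected genes. This was Fmod, a collagen-bound proteoglycan that binds TGF-beta, at 2.04 in traced and 3.22 in untraced cells. Fstl3, a relative of follistatin, was 0.50 and 0.33 higher after TAC and was called higher in fibroblasts than in endothelial cells (2.73, limma adjusted p = 0.0128).

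Of 12 SMADs and regulators 0 stood at least 2-fold higher in both fibroblast populations and 0 lower, against 4.33% and 1.79% of detected genes. The list median was 0.35. Smad6, the inhibitory SMAD that acts mainly on BMP signals, stood 1.71 higher in traced and 0.79 higher in untraced fibroblasts, and at -0.23 in endothelial cells. Its traced sham value, 6.69, lay below the array median. Like Smad7, Smad6 was positive in both fibroblast populations and negative in endothelial cells. The corepressor genes Tgif2 (0.95 and 0.96) and Tgif1 (0.83 and 0.71) were also above 0 in both fibroblast populations. Smad3, a SMAD that carries the TGF-beta signal, differed by -0.06 and -0.20 after TAC and was higher in fibroblasts than in endothelial cells (2.75, limma adjusted p = 0.00705).

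Of 14 genes known as targets of TGF-beta, 13 were analysed here and detected in fibroblasts, and 5 stood at least 2-fold higher in both populations after TAC and 0 lower, against 4.33% and 1.79% of detected genes, with a median of 0.85. They were the cell cycle inhibitor gene Cdkn2b (2.07 in traced and 2.39 in untraced), Tagln of the smooth muscle cytoskeleton (2.25 and 2.12), fibronectin, Fn1 (1.63 and 2.01), the matrix gene Cilp (1.57 and 1.77) and the oxidase gene Nox4 (1.68 and 1.32). The untraced sham value of Cdkn2b, 6.52, lay below the array median. Below 0 in both populations lay Tgfbi, a matrix gene named for its induction by TGF-beta (-0.43 and -0.14), and the transcription factor gene Klf10 (-0.37 and -0.14). In endothelial cells 8 of 12 detected targets stood at least 2-fold higher after TAC, against 10.9% of detected genes, and 3 of those 8 (Tgfbi, Nox4 and Cilp) lay below the array median at sham. Of the same 8, Postn at 5.55 and Col1a1 at 4.43 are among the fibroblast markers, and the part of fibroblast RNA in this count was not tested. Tagln differed by -0.21 there. Between cell types 2 targets were called, both higher in fibroblasts, against 11.5% of detected genes: Tgfbi (4.72, limma adjusted p = 0.0222) and Pmepa1 (2.02, limma adjusted p = 0.0406). The Tgfbi difference is unraised, with an endothelial sham value of 6.16.

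**Figure D4:**
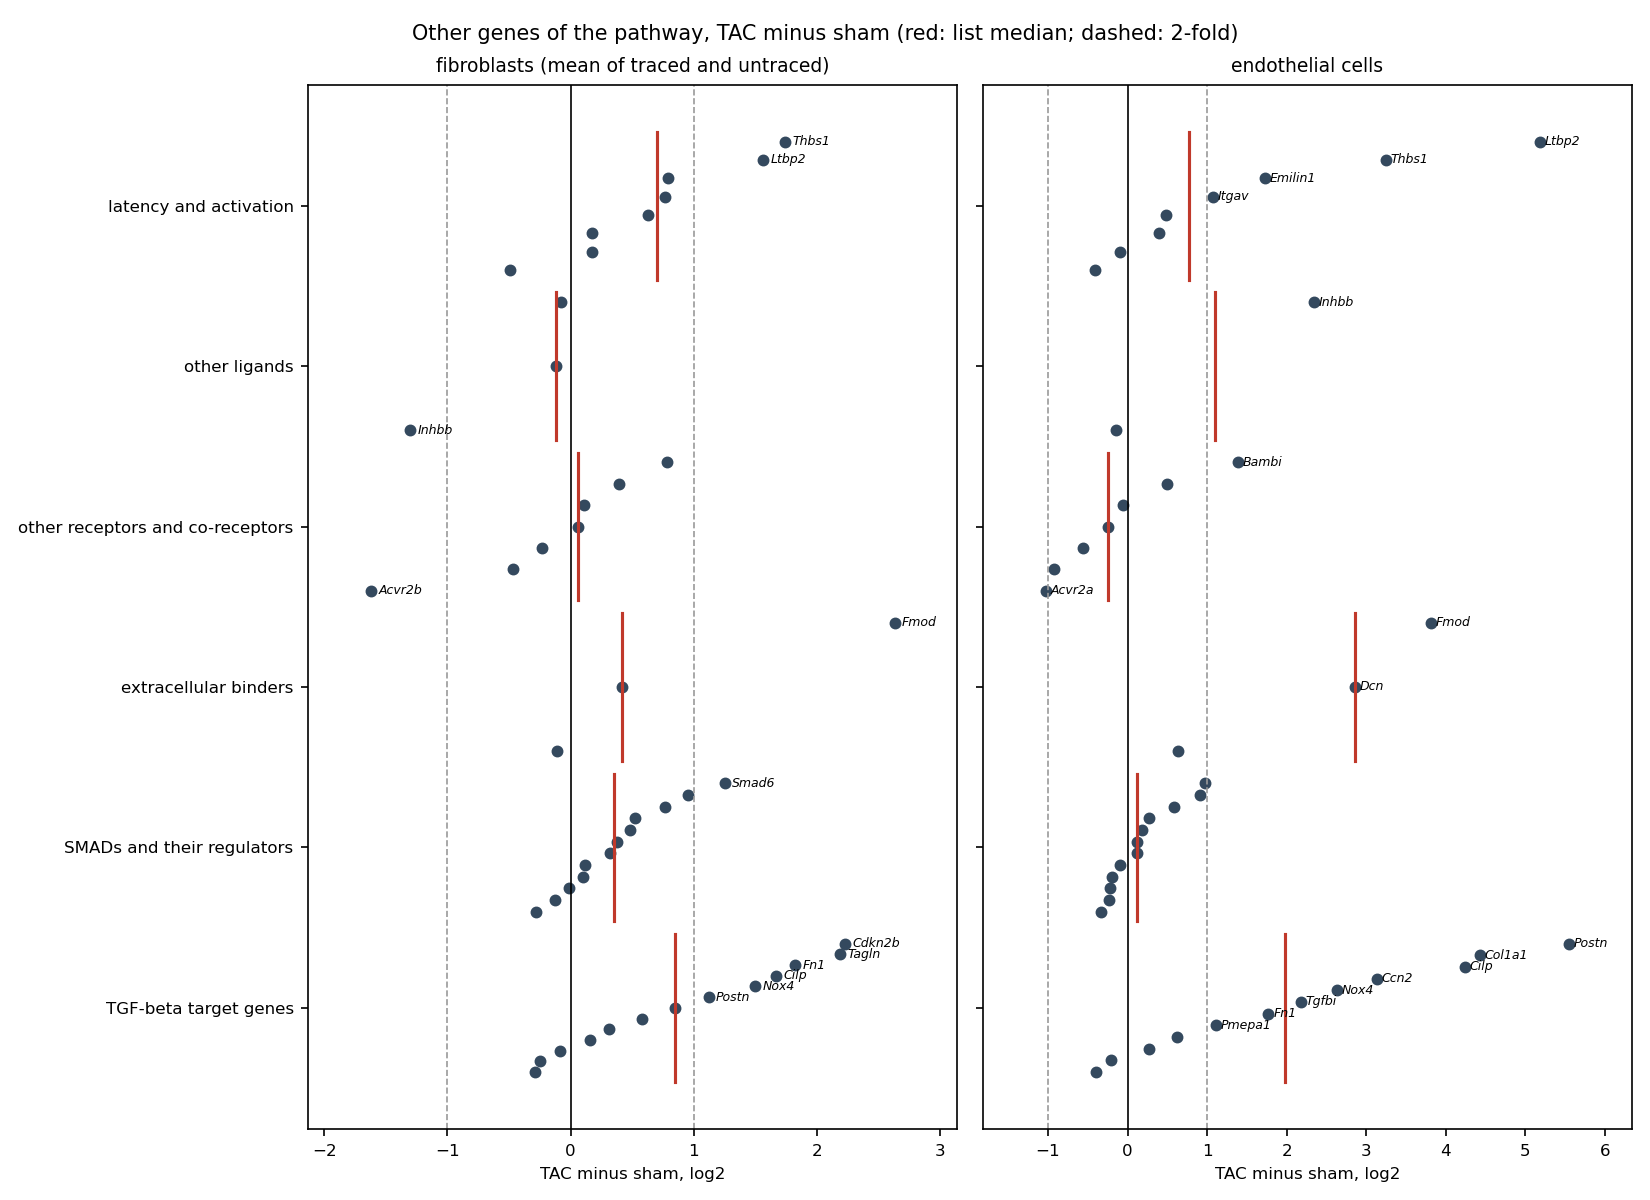
TAC minus sham difference in log2 units (x axis) of the detected genes of the 6 pathway lists (y axis), on the left as the mean of traced and untraced fibroblasts and on the right in endothelial cells, with each list's median as a red line and names for genes at or beyond 2-fold. Inhbb lies at -1.30 in fibroblasts and 2.34 in endothelial cells, and the target list has medians of 0.85 in fibroblasts and 1.98 in endothelial cells.

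Genes whose centred log2 profile over the 6 arrays was closest were sought for the 8 genes with a range of at least 2, by the root mean square difference among detected genes of at least that range. The profiles are set mostly by the gap between fibroblast and endothelial arrays, and the labels do not say which of the 6 arrays share mice. Tgfb3 lay closest to Triqk (0.10), the chemokine gene Ccl2 (0.10) and Slc41a2 (0.13), of 677 genes. Tgfb2 lay closest to the extracellular superoxide dismutase gene Sod3 (0.12), Rarres2 (0.12) and Plekhf1 (0.13), of 887. Inhba lay closest to the transcription factor gene Sox9 (0.22), the deiodinase gene Dio2 (0.25) and Ccn5 (0.26), of 163. Tgfb1 lay closest to Sipa1l2 (0.13), Glt28d2 (0.18) and Ppp1r3d (0.20), of 2560, and Tgfbr3 to Pdxk (0.09), Mturn (0.11) and Eda (0.21), of 1409. Ltbp1 lay closest to Naaladl2 (0.12), Arhgap22 (0.15) and Tle6 (0.15), of 2297, Fst to Cebpd (0.10), Nenf (0.15) and Fam174c (0.15), of 2631, and Tgfbr1 to Lancl1 (0.09), Chid1 (0.09) and Serp1 (0.10), of 1901.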

How the data were processed

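The authors' deposited values are probe set intensities on a linear scale for 45101 probe sets on 6 arrays, from 3.82 to 37205, and RMA is named in the submitters' processing notes, with its version not given in the sources used here. Array medians lay between 106.6 and 115.2, and a background model such as that of RMA shrinks the differences of dim probes. The number of arrays limits the precision. Log2 was taken with no further normalization. Probe sets with exactly 1 symbol (34958) took their names from GEO's platform table, with symbols brought up to date where the identifier was found (99.4%). Detection meant lying above the array median on at least 1 array compared. The cell type fit used limma 3.58.1 (R 4.3.3) on all detected genes, two-sided, with 2 residual degrees of freedom and fewer with the surgery block. The main fit was tested on simulated data, with independent noise on every array set from the spread of the 4 fibroblast arrays. Such noise leaves out the spread of the endothelial arrays and any sharing within a surgery, so it does not check the fit under those conditions. For Fst, Inhba, Itgb8, Inha and Nrros, a level below the array median was raised to that median to give a lower bound of the fold ("at least"). This step was added after the values were seen. Differences of other genes with a level below the array median, among them Smad6, Acvr2b, Cdkn2b, Nodal and Tgfbi, are given unraised. TAC and lineage differences were not tested. All 10 genes are reported, and of each pathway list up to 4 genes by TAC difference and 4 by cell type difference, with every gene named where a count was 5 or fewer. The genes and lists were chosen with earlier results of these data known. Alternatives covered the probe set rule, filter, offset, normalization, block and each array left out.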

Additional observations from a re-analysis of the deposited data

Results flagged for a closer look

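In 4 genes both fibroblast populations lay on one side of 0 after TAC and endothelial cells on the other, and in each case the difference was not tested. Tgfb1 was 1.23 in traced fibroblasts, 0.35 in untraced fibroblasts and -0.01 in endothelial cells, so that the endothelial value minus the fibroblast mean was -0.80. Tgfb2 was -0.58, -0.41 and 0.67 in the same order, a difference of 1.17, beside the 12 fibroblast markers on the same endothelial arrays, whose median was 3.80, and another probe set of Tgfb2 gave -0.03 in endothelial cells. Fst was -0.33, -0.46 and 0.53, a difference of 0.93, with both endothelial values below the array median. Smad7 was 0.79, 0.52 and -0.21, a difference of -0.87.

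In 3 genes the traced minus untraced difference had opposite signs at the 2 surgeries, with 1 pair of arrays each and no test. For Tgfb1 it was 0.39 after TAC and -0.49 at sham, 0.88 apart. For Tgfb2 it was -0.01 and 0.15, -0.16 apart, and for Smad7 0.11 and -0.16, 0.27 apart.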

How the results depend on the processing

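No paired analysis was possible by replicate number, because the groups share only 1 such number, and surgery as a block took its place between cell types. Tgfb2 kept its cell type call under all 15 alternative settings (2.89 to 3.56), and no gene of the 10 changed direction between cell types in those that tested it (14 for Fst, not tested above the upper quartile, and 15 for the others). The 5 genes called higher in fibroblasts became 8 with surgery as a block and 8 with the 4 fibroblast arrays as separate values, with Inhba, Tgfbr1 and Tgfbr2 added, and lay between 2 and 6 when 1 array was left out. The 1 gene called lower, Tgfb1, was lost (0) with the mean of all probe sets, with no filter and with median centring, and the count lay between 0 and 1 when 1 array was left out (a lone endothelial value is then assumed to vary like the fibroblast values): it was lost without the untraced TAC, untraced sham, endothelial TAC or endothelial sham array. Over all genes the block gave 2298 higher and the separate arrays 2211, against 1415, and leaving out the endothelial sham array gave 685 higher and 472 lower, against 1415 and 797. With the mean of all probe sets 1 gene, Tgfbr3, stood 2-fold lower in both fibroblast populations, and 1, Tgfb3, 2-fold higher in endothelial cells, against 0 and 3. At 1.5-fold the counts were 1 higher and 2 lower in fibroblasts and 5 higher and 1 lower in endothelial cells. Over all genes they were 1035 and 565 in fibroblasts, against 503 and 208, 2746 and 852 in endothelial cells, against 1213 and 204, and 42 and 40 for traced against untraced cells, against 4 and 4. Detection above the upper quartile gave 256 higher in fibroblasts and 618 higher and 132 lower in endothelial cells, and the other settings gave 0 to 7 genes for the lineage. In endothelial cells the upper quartile gave 2 of the 10 genes higher, without Inhba, whose TAC difference there was 1.98 with an offset of 50 and 1.5 with the mean of all probe sets, against 3.26. Counting traced fibroblasts alone, an alternative chosen after seeing the data, gave 2 higher. The lineage counts of the 10 genes remained at 0 in every setting run. The cause of these shifts was not tested. Dim values limit Inhba and Fst in endothelial cells.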
